A study of Mus musculus with 6 samples.

Results

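The genes described here are 40 markers of dividing cells, 11 of S phase and 29 of G2 phase and mitosis, out of 55450 genes in the count table. They were chosen by symbol (GENCODE release M21 on GRCm38), and all 40 were found. The S phase genes are Mcm2 to Mcm7, Pcna, Rrm1, Rrm2, Tyms and Tk1, and the other 29 are called mitotic below. The study compared whole mammary glands of virgin FVB females, 3 wild-type (WT) and 3 Hpn-/-, by total RNA sequencing. In the Hpn-/- mice Hpn, which encodes the transmembrane serine protease hepsin, had been disrupted with CRISPR/Cas9. The WT animals were aged 2 weeks (replicate 1), 6 weeks (replicate 2) and 5 weeks (replicate 3). The Hpn-/- animals were aged 6 weeks (replicates 1 and 2) and 5 weeks (replicate 3), so genotype and age are partly mixed. The sources used here do not say whether they descend from 1 founder.

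The deposited counts summed to 10971661 to 18807615 per library, of which loci with ribosomal RNA sequence took 78.0% to 84.3%, leaving 1798932 to 3071401 counts for all other genes. A member had 2 to 259 counts in a library, with a median of 26.5, so counting error alone is sizeable for most members. For Hpn itself 12, 6 and 4 reads were counted in WT and 4, 3 and 5 in Hpn-/- libraries, in replicate order, so at this depth it hardly checks the genotype labels. The labelled tissue was checked against its markers. All 12 adipocyte, 15 of 18 luminal and 7 of 10 basal epithelial markers passed the count filter.

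Cells copy their DNA in S phase and separate the copies in mitosis, and the transcripts for both tasks are made in waves. Genes of the G1 to S transition are controlled by E2F factors. Genes of G2 phase and mitosis are repressed in resting cells by the DREAM complex and switched on by MYB-MuvB and FOXM1. These act through the cell cycle genes homology region (CHR), often with CCAAT boxes bound by NF-Y. In the pubertal gland division is concentrated in the end buds of the growing ducts, and fat, stromal, vascular and immune cells divide as well. In whole-gland RNA fewer dividing cells and less of these transcripts per cell cannot be told apart.

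The promoters show what the members share beyond their names. RefSeq windows (GRCm38.p6, 250 bases before to 50 after the annotated start) were found for 10 S phase genes with 11 windows and 24 mitotic genes with 26 windows. The windows of Mcm4, Ccna2, Aurkb, Kif20a, Tpx2 and Smc4 were not analysed here. The CHR letters TTTGAA or TTCGAA, searched on both strands, were present in 23 of 26 mitotic windows (88.5%), in 2 of 11 S phase windows (18.2%) and in 17.6% of 21263 windows of protein-coding genes. CCAAT was present in 92.3% of mitotic, 81.8% of S phase and 38.2% of protein-coding windows. The E2F letters TTTCCCGC, TTTCGCGC, TTTGCCGC or TTTGGCGC were present in 4 of 11 S phase windows (36.4%), 3 of 26 mitotic windows (11.5%) and 2.85% of protein-coding windows. Over all 32851 windows the shares were 19.2% for the CHR, 37.4% for CCAAT and 2.26% for E2F. The E2F words of opposite strands can overlap each other. These letters describe the windows and do not show binding.

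**Figure D1:**
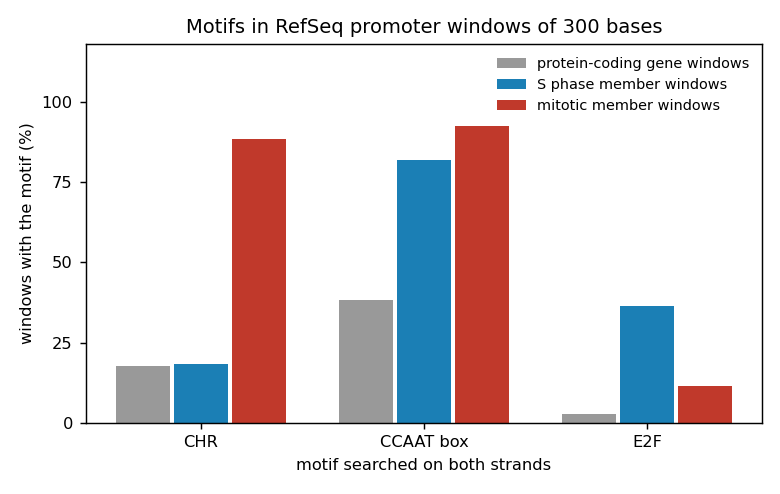
Share of RefSeq promoter windows (y axis, percent) that hold each motif (x axis) for all protein-coding genes (grey), S phase members (blue, 11 windows) and mitotic members (red, 26 windows). The CHR stands in 88.5% of mitotic windows against 18.2% of S phase and 17.6% of protein-coding windows.

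The 150 bases before the RefSeq start are shown 5' to 3' for 3 mitotic and 3 S phase genes. Cdk1 and Mki67 had the smallest p-values among mitotic members and Mcm2 and Mcm6 among S phase members, while Top2a and Rrm1 are well measured genes with a larger and a smaller difference between genotypes. Capitals mark CHR, CCAAT and E2F letters on either strand (CCAAT reads ATTGG on the other strand, and TTTGAA reads TTCAAA).
Cdk1 (chr10:69352913-69353062, minus strand): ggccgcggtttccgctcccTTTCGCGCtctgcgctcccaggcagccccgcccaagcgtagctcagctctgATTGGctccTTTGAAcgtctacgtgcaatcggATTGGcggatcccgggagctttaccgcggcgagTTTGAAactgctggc
Mki67 (chr7:135716380-135716529, minus strand): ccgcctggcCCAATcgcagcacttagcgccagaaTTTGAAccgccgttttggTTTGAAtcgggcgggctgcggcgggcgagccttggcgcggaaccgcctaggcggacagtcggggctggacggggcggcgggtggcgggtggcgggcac
Top2a (chr11:99024190-99024339, minus strand): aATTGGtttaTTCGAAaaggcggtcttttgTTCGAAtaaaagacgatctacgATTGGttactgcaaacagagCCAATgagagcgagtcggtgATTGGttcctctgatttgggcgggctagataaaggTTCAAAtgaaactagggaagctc
Mcm2 (chr6:88898781-88898930, minus strand): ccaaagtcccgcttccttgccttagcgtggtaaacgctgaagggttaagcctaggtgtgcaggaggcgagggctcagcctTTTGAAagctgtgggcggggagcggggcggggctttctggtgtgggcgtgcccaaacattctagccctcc
Mcm6 (chr1:128359706-128359855, minus strand): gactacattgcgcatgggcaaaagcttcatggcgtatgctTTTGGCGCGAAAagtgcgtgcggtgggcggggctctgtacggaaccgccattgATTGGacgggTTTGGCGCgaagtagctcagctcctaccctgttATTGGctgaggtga
Rrm1 (chr7:102441545-102441694, plus strand): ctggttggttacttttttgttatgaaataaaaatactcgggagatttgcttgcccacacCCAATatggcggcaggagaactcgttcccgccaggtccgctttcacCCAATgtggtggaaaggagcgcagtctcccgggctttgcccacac
Cdk1 carries 2 CHR words, 2 CCAAT boxes and 1 E2F word in this stretch, Mki67 holds 2 CHR words beside 1 CCAAT box, and Top2a has 3 CHR words and 4 CCAAT boxes. Mcm6 shows E2F words and CCAAT boxes with no CHR, Rrm1 shows CCAAT boxes alone, and Mcm2 is 1 of the 2 S phase windows with a CHR word.

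The levels of the members are given relative to library totals that include the ribosomal RNA loci, and they were not ranked against other genes. Per kilobase of exon, Smc4, a condensin subunit, was the most abundant mitotic member at a mean of 2.68 CPM per kb (CPM is the gene's count relative to the library's total, scaled by TMM) over the 6 libraries. Mki67, which coats mitotic chromosomes and marks dividing cells, followed at 1.35 and the condensin subunit Ncapd2 at 0.927 CPM per kb. Among S phase members Pcna, the sliding clamp of DNA polymerases, was at 2.39, and the helicase subunits Mcm4 and Mcm3 were at 1.77 and 1.60 CPM per kb. The exon length merges all annotated exons of a gene, so the order depends on the annotation. In CPM alone Rrm1, with 11012 bases of exon, was the highest S phase member (means of 7.81 in WT and 7.31 in Hpn-/- glands). The lowest member was Ncapg at 0.114 CPM per kb.

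Hpn-/- glands were set against WT glands to find transcripts whose level differs where hepsin is disrupted. In edgeR's quasi-likelihood test 36 of the 40 members passed the count filter, all 11 S phase and 25 mitotic ones, and 0 were called at an adjusted p under 0.05. The background is 0.016%, 2 of 12520 tested genes, both higher in Hpn-/- glands. At an unadjusted p under 0.05, 14 members were lower and 0 higher in Hpn-/- glands, where 2.9% of tested genes were lower and 3.98% higher. DESeq2 and limma-voom also called 0 members. At the unadjusted threshold 8 and 11 members were lower in them, where 209 and 382 of 12520 tested genes were lower. With age as a covariate the count of lower members was 3 in all 6 libraries (background 1.52%) and 7 in the libraries of 5 and 6 weeks (2.85%). It was 7 without WT replicate 1 (2.12%), 4 without WT replicate 3 (2.28%), 6 without Hpn-/- replicate 1 (2.65%) and 23 without Hpn-/- replicate 3 (7.01%). In the fit without Hpn-/- replicate 3, 1 member was higher, against 829 of 12916 tested genes. The log2 fold change, always Hpn-/- minus WT, was below 0 for 35 of 36 members, against 49.1% of all tested genes. Its median was -0.30 over S phase members and -0.67 over mitotic members, against 0.005 over all tested genes. The groups did not overlap for 5 members, all lower in Hpn-/- glands, namely Mcm6, Ccnb2, Kif23, Ncapd2 and Smc2. Of all tested genes 5.04% were lower and 5.94% higher without overlap. Ccnb2 lay near the count filter, at 13, 12 and 18 counts in WT and 11, 7 and 10 in Hpn-/- libraries. Its WT counts carried it past, so its lack of overlap is not independent of the filter. Age also separated libraries. For Mki67, Cdk1, Kif20a, Prc1, Anln, Top2a, Tk1 and Pcna all 6 week libraries, WT included, lay below all 2 and 5 week libraries. That was not so for Mcm2, Mcm6, Ccnb2, Kif23, Ncapd2 and Smc2. The share of all tested genes with that age order is not given here.

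**Figure D2:**
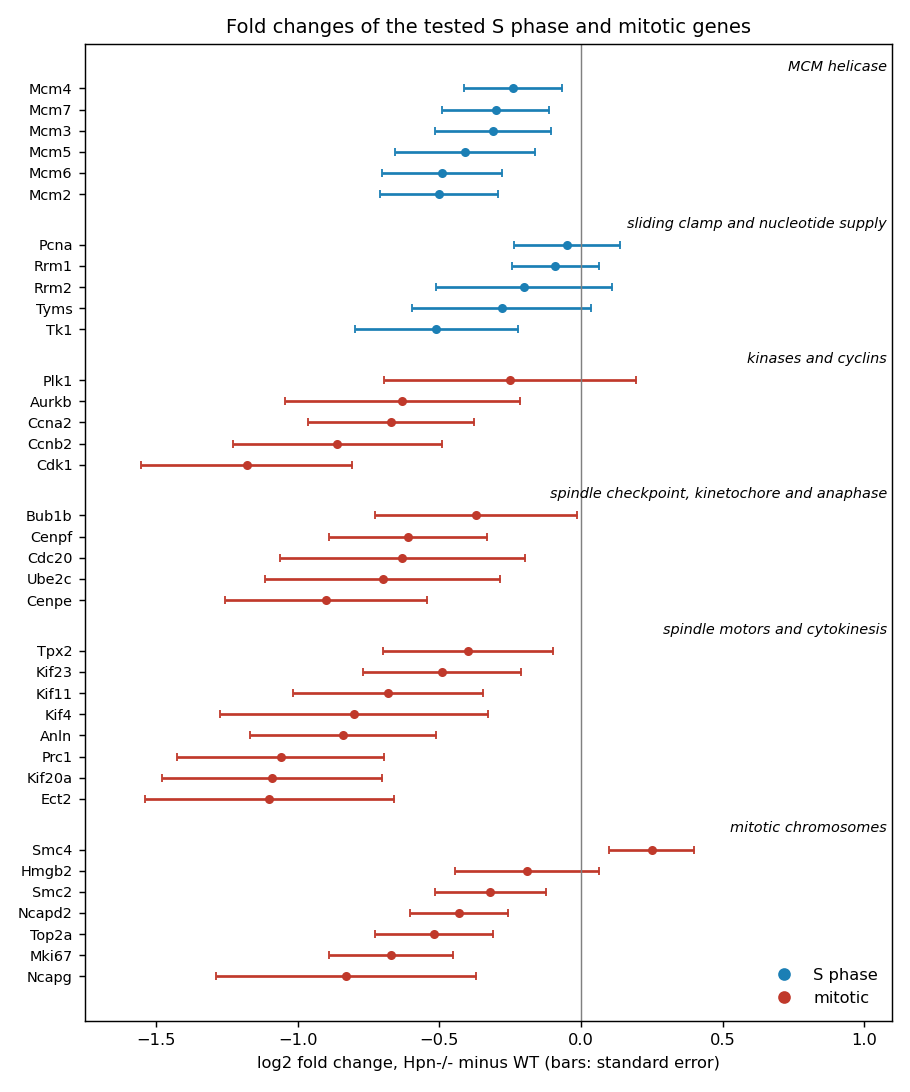
Log2 fold change (x axis, Hpn-/- minus WT, bars are standard errors, n = 3 libraries each) of the 36 tested members by role (y axis), S phase in blue and mitotic in red. All S phase points lie between -0.51 and -0.05, mitotic points reach -1.18, and Smc4 at 0.25 is the single member above 0.

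The MCM2 to MCM7 proteins form the ring that unwinds DNA at replication forks. Mcm2 was at 6.27, 6.31 and 7.80 CPM in WT replicates 1, 2 and 3 and at 3.50, 4.40 and 6.35 CPM in Hpn-/- replicates 1, 2 and 3. The 5 week Hpn-/- library reached into the WT range, and the 6 week Hpn-/- libraries lay below it (log2 fold change -0.50, SE 0.209, edgeR adjusted p = 0.649). Mcm6 was at 5.77, 5.64 and 6.63 CPM in WT and at 2.84, 4.86 and 5.13 CPM in Hpn-/- replicates 1, 2 and 3. Here the groups did not overlap, yet the test was not passed (log2 fold change -0.49, SE 0.211, edgeR adjusted p = 0.662). Mcm5 was at 5.20, 4.68 and 6.37 CPM in WT and at 3.77, 2.48 and 5.65 CPM in Hpn-/- glands, with overlap (-0.41, SE 0.247, edgeR adjusted p = 0.839). Mcm3 was at 6.48, 6.12 and 7.38 against 3.77, 5.32 and 6.99 CPM (-0.31, SE 0.205, edgeR adjusted p = 0.862). Mcm4 was at 6.34, 6.79 and 7.55 against 5.22, 5.13 and 6.99 CPM (-0.24, SE 0.174, edgeR adjusted p = 0.869). In these genes the 5 week Hpn-/- library was the highest of its group and the 5 week WT library the highest of all. Mcm7 (-0.30) differed from that order, with WT replicate 2 highest at 7.36 CPM. Without Hpn-/- replicate 1 the log2 fold change was -0.33 for Mcm2, -0.28 for Mcm6 and -0.11 for Mcm3. Without Hpn-/- replicate 3 it was -0.80 for Mcm2, -0.77 for Mcm5, -0.58 for Mcm3 and -0.41 for Mcm4, and without Hpn-/- replicate 2 Mcm5 was at -0.20.

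The sliding clamp and the enzymes that supply nucleotides ranged from -0.51 for Tk1 to -0.05 for Pcna, with a median log2 fold change of -0.20. Pcna was at 5.98, 4.97 and 6.54 CPM in WT and at 4.63, 5.41 and 6.82 CPM in Hpn-/- replicates 1, 2 and 3. The groups overlapped throughout, and the log2 fold change of -0.05 (95% interval -0.45 to 0.34) leaves room for a difference in either direction. Counts on the processed pseudogenes Pcna-ps1 and Pcna-ps2 were 0 in all libraries except 1 count in Hpn-/- replicate 3. Rrm1 and Rrm2, the subunits of ribonucleotide reductase, were at -0.09 and -0.20, and Tyms, thymidylate synthase, was at -0.28. Tk1, the thymidine kinase of dividing cells, was at 2.56, 1.53 and 2.68 CPM in WT and at 1.45, 1.28 and 1.98 CPM in Hpn-/- libraries (log2 fold change -0.51, SE 0.288, edgeR adjusted p = 0.820). The 6 week WT library lay among the Hpn-/- libraries for Tk1, which was at -0.30 with age added to the fit of all 6 libraries.

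Of the kinases and cyclins that drive entry into mitosis, 5 of 7 were tested, with a median log2 fold change of -0.67. Cdk1, the mitotic kinase, was at 2.56, 1.34 and 2.43 CPM in WT replicates 1, 2 and 3 and at 0.463, 0.917 and 1.40 CPM in Hpn-/- replicates 1, 2 and 3. The Hpn-/- library of 5 weeks just exceeded the WT library of 6 weeks, and the other Hpn-/- libraries lay below all WT libraries (log2 fold change -1.18, SE 0.373, edgeR adjusted p = 0.508). Its partners Ccna2 and Ccnb2 were at -0.67 and -0.86, and the kinases Aurkb and Plk1 at -0.63 and -0.25. Ccnb1 lay under the count filter, at 16, 11 and 9 reads in WT and 4, 5 and 8 in Hpn-/- libraries. In CPM its groups did not overlap (0.755 to 1.14 against 0.264 to 0.466), and in a fit without the filter its log2 fold change was -1.29 (edgeR adjusted p = 0.379). Aurka, the spindle pole kinase, had 2 to 14 counts and was at -0.26 in that fit (edgeR adjusted p = 0.926).

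The genes of the spindle checkpoint, the kinetochore and anaphase had 5 of 6 members tested and a median of -0.63. The kinetochore motor Cenpe was at -0.90 and Cenpf at -0.61. The checkpoint kinase gene Bub1b was at -0.37, and Cdc20 and Ube2c, which act with the anaphase-promoting complex, at -0.63 and -0.70. Bub1 lay under the count filter, with 3 to 15 counts per library, and was at -1.17 without it (edgeR adjusted p = 0.709). The exons of Ube2c overlap those of Tnnc2, a troponin gene of fast muscle on the opposite strand, over 22.8% of their length. In WT replicates 1, 2 and 3 Tnnc2 had 263, 32 and 19 counts and Ube2c was at 2.06, 0.765 and 1.34 CPM. In Hpn-/- replicates 1, 2 and 3 Tnnc2 had 481, 72 and 4 counts and Ube2c was at 0.661, 1.47 and 0.641 CPM. Without WT replicate 1 the log2 fold change of Ube2c was -0.28, and the part of the overlap in its counts was not tested.

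Spindle motors and cytokinesis genes held the largest differences as a role, with 8 of 8 members tested, all below 0, and a median of -0.82. Prc1, which bundles the microtubules of the central spindle, was at 4.06, 1.34 and 2.94 CPM in WT and at 0.925, 1.38 and 1.75 CPM in Hpn-/- replicates 1, 2 and 3 (log2 fold change -1.06, SE 0.366, edgeR adjusted p = 0.571). Kif20a, a kinesin of cytokinesis, was at 1.85, 0.956 and 2.60 against 0.529, 0.825 and 1.17 CPM (-1.09, SE 0.389, edgeR adjusted p = 0.582). Anln, the contractile ring protein anillin, was at 3.92, 1.62 and 4.19 against 1.32, 1.83 and 2.33 CPM (-0.84, SE 0.327, edgeR adjusted p = 0.635). In all 3 genes WT replicates 1 and 3 were above the rest and the 6 week WT replicate 2 lay within the Hpn-/- range. With age added to the fit of all 6 libraries Prc1 was at -0.53 and Anln at -0.52, and Prc1 was at -0.67 without the 2 week library. Ect2, the exchange factor that activates RhoA in cytokinesis, was at 0.926, 1.24 and 1.68 against 0.264, 1.01 and 0.583 CPM (-1.10, SE 0.439, edgeR adjusted p = 0.635). Kif11, Kif23, Kif4 and Tpx2 ranged from -0.80 to -0.40.

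Genes of mitotic chromosomes had a median of -0.43 over 7 tested of 8. Mki67 was at 18.4, 11.4 and 20.2 CPM in WT and at 8.99, 9.17 and 13.1 CPM in Hpn-/- replicates 1, 2 and 3. Only the Hpn-/- library of 5 weeks exceeded the lowest WT library (16.7 ± 4.68 against 10.4 ± 2.33 CPM, SD, n = 3 each, log2 fold change -0.67, SE 0.218, edgeR adjusted p = 0.567). Top2a, the topoisomerase that untangles sister chromatids, was at 8.61, 6.02 and 10.3 against 4.43, 6.24 and 6.88 CPM (-0.52, SE 0.208, edgeR adjusted p = 0.635), and at -0.34 without WT replicate 3. Hmgb2, a chromatin protein, was at -0.19, and Birc5, of the chromosomal passenger complex, lay under the filter with 6 to 14 counts (-0.44 without it, edgeR adjusted p = 0.810).

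Of the members that are subunits of condensin, which compacts mitotic chromosomes, only Smc4 lay above 0. Ncapd2 was at 7.12, 5.93 and 6.96 CPM in WT and at 4.23, 4.95 and 5.65 CPM in Hpn-/- libraries, without overlap (log2 fold change -0.43, SE 0.174, edgeR adjusted p = 0.635). Smc2 was at -0.32 and Ncapg at -0.83. Smc4 was at 11.7, 14.4 and 12.0 CPM in WT and at 17.1, 15.9 and 12.5 CPM in Hpn-/- replicates 1, 2 and 3. The 6 week libraries of either genotype were above those of 2 and 5 weeks, the opposite order to most members (0.25, SE 0.150, 95% interval -0.07 to 0.57, edgeR adjusted p = 0.839). Its log2 fold change was 0.14 with age added to the fit of all 6 libraries and without Hpn-/- replicate 1, and 0.38 without Hpn-/- replicate 3.

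**Figure D3:**
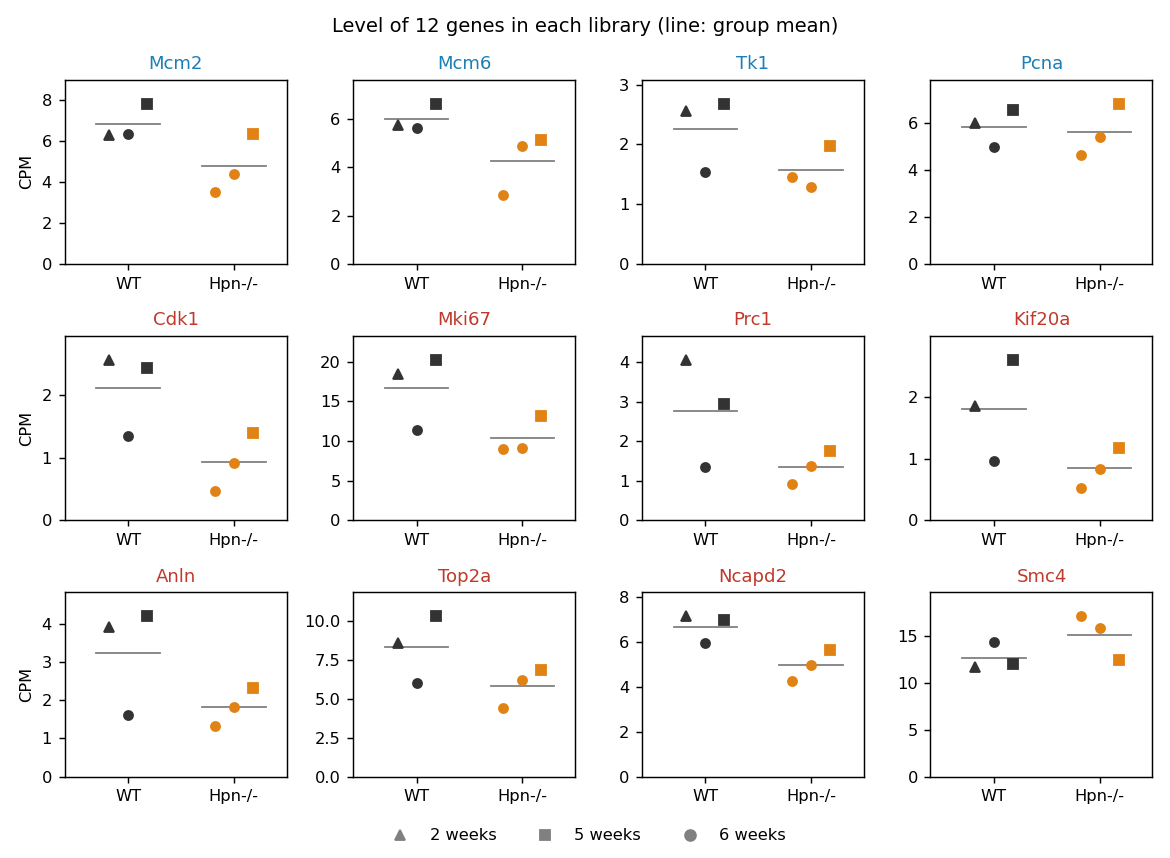
CPM (y axis) of 12 members in each library, WT in black and Hpn-/- in orange, with age as the symbol and the group mean as a line. The 5 week squares are the highest of their group for most genes, and Smc4 shows the reverse order.

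Exons of 12 members overlap another annotated gene, for 10 of them on the opposite strand, and the sources used here do not state the strand setting of the counting. Their counts are therefore uncertain. The overlap was largest for Kif20a (29.3% of its exon length, with Cdc23), Ube2c (22.8%) and Kif4 (15.1%, with Pdzd11), and it concerned Ccna2, Ncapg, Prc1, Plk1, Mcm7, Cdc20, Tk1, Ncapd2 and Top2a as well.

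The values depended on single libraries. WT replicate 3 was the highest library for 23 of 36 tested members, against 17.9% of all tested genes, and WT replicate 1 for 8, against 15.8%. Hpn-/- replicate 1 was the lowest for 21 members, against 20.2% of all tested genes. That library also had the largest TMM factor (1.24), the smallest share of ribosomal RNA loci (78.0%) and the largest summed level of 12 skeletal muscle genes (2200 CPM), and their part in the result was not tested. WT replicate 1, which was next in muscle genes at 1350 CPM, is also the only 2 week library, so muscle content and age cannot be told apart there. Without Hpn-/- replicate 3 the medians were -0.58 for S phase and -0.85 for mitotic members, and Mki67 (-0.89, edgeR adjusted p = 0.0391) and Cdk1 (-1.69, edgeR adjusted p = 0.0359) were called, against 0.859% of tested genes called lower. Without Hpn-/- replicate 1 the medians were -0.15 and -0.48. Without the 2 week WT replicate 1 they were -0.33 and -0.58, and without WT replicate 3 they were -0.24 and -0.53. In a fit with no count filter Mki67 was called (edgeR adjusted p = 0.00665), against 0.0951% of genes called lower.

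The S phase and mitotic genes were next compared library by library. For each gene log2 CPM was taken relative to its own average over the libraries, and the list mean is the average of these values over the members tested. It was 0.136, 0.0101 and 0.344 for S phase genes in WT replicates 1, 2 and 3. In Hpn-/- replicates 1, 2 and 3 it was -0.430, -0.261 and 0.201. For mitotic genes it was 0.398, -0.138 and 0.599 in WT and -0.558, -0.286 and -0.0147 in Hpn-/- libraries. Mitotic genes thus spread more widely between libraries than S phase genes, and in both lists the Hpn-/- library of 5 weeks was within the WT range.

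**Figure D4:**
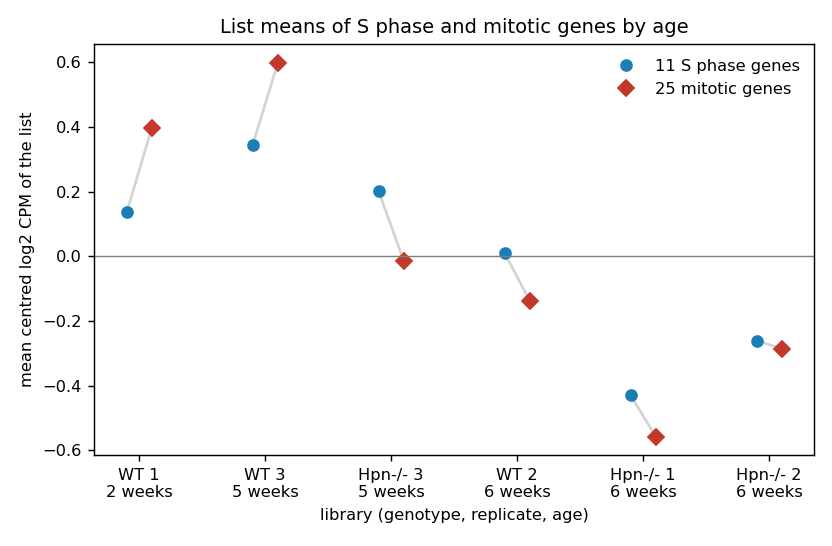
List mean (y axis, mean centred log2 CPM) of 11 S phase genes (blue circles) and 25 mitotic genes (red diamonds) in each library, ordered by age on the x axis. In WT replicates 1 and 3 the mitotic point is above the S phase point, and in the other 4 libraries it is below.

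At 5 weeks, with 1 library per genotype and so no replicate check, 24 of 25 mitotic members were lower in the Hpn-/- library, with a median difference of -0.57 on the log2 CPM scale. In the same pair 9 of 11 S phase members were lower, with a median of -0.11. At 6 weeks, with 2 Hpn-/- libraries against 1 WT library, 18 of 25 mitotic members were lower (median -0.28) and 10 of 11 S phase members (median -0.38), with MCM2 to MCM7 at -0.59. Over all tested genes 50.1% were lower at 5 weeks and 50.4% at 6 weeks, with medians of 0. The larger difference thus stood in mitotic genes at 5 weeks and in MCM genes at 6 weeks. Counting members lower in Hpn-/- at 5 weeks and in both Hpn-/- libraries at 6 weeks gave 8 of 11 S phase and 12 of 25 mitotic genes, against 19.1% of all tested genes. Mki67, Cdk1, Ccnb2, Mcm2 and Mcm6 were among them, whereas Top2a, Prc1 and Anln were not. With age added to the fit, without the 2 week library, the medians were -0.27 for S phase and -0.48 for mitotic members, with 10 of 11 and 23 of 25 below 0 and 0 called, against 0.00779% of tested genes called lower.

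Summed counts gave the balance of the lists within each library. Mitotic genes took 63.3% of all member counts in WT replicate 1 (exact 95% interval 61.2 to 65.3), 56.5% in WT replicate 2 (53.8 to 59.2) and 62.0% in WT replicate 3 (59.9 to 64.1). They took 60.0% in Hpn-/- replicate 1 (57.5 to 62.5), 59.4% in Hpn-/- replicate 2 (56.5 to 62.2) and 55.7% in Hpn-/- replicate 3 (53.7 to 57.8). These intervals cover counting error only. The genotypes overlapped, and the share was lower in the Hpn-/- library at 5 weeks and higher in both Hpn-/- libraries at 6 weeks. Smc4 is a large part of these counts, with 259 of 878 mitotic counts in Hpn-/- replicate 1. Without Smc4, a choice made after seeing its values, the shares were 60.2%, 50.8% and 59.1% in WT and 51.4%, 52.5% and 51.2% in Hpn-/- replicates 1, 2 and 3. The 2 week and 5 week WT libraries then stood apart from the other 4, the 6 week WT library included.

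**Figure D5:**
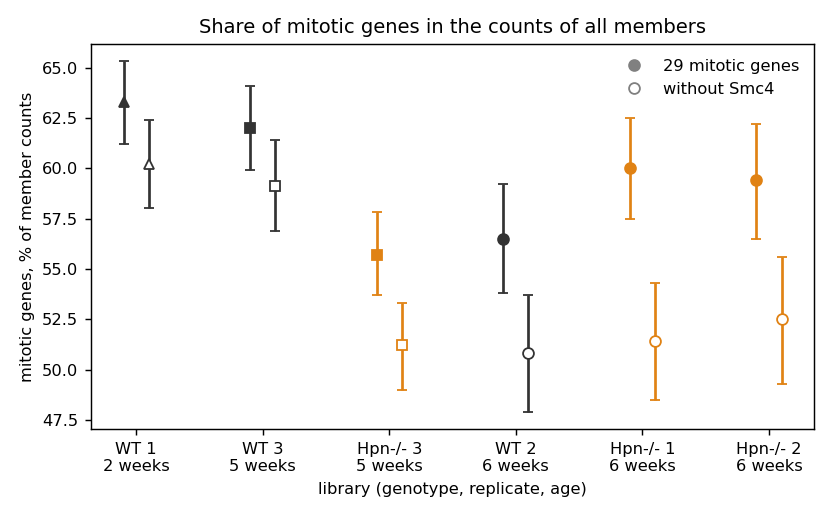
Share of mitotic genes in the counts of all members (y axis, percent, bars are exact 95% intervals for counting error) in each library, ordered by age on the x axis, WT in black and Hpn-/- in orange. Filled symbols use all 29 mitotic genes and open symbols leave out Smc4, where WT replicates 1 and 3 (60.2% and 59.1%) lie above the other libraries (50.8% to 52.5%).

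Other genes of the cell cycle were read from 5 lists chosen by function. In edgeR 0 of their members were called, against 0.016% of all tested genes. Of 38 genes for origin licensing and replication forks 33 were tested, and 26 had lower and 7 higher values in Hpn-/- glands (median -0.33). At an unadjusted p under 0.05, 7 of them were lower and 0 higher. Of all tested genes 49.1% had lower values, and at that threshold 2.9% were lower and 3.98% higher. Uhrf1, which keeps DNA methylation through replication, was at 5.21 ± 1.33 in WT against 2.93 ± 0.922 in CPM (SD, n = 3 each, log2 fold change -0.82, edgeR adjusted p = 0.508). The DNA ligase Lig1 and the fork protein gene Gins2 were at -0.59 and -1.05, and the clamp loader gene Rfc1, the most abundant in CPM, at 0.07. Gins2 had 72 counts in total, and 67.3% of its exon length overlaps Gse1 on the opposite strand, so its value is uncertain. It was at 0.956 to 1.64 CPM in WT and 0.458 to 0.699 CPM in Hpn-/- libraries. Its WT libraries carried it past the count filter, so its place among the 7 is not independent of the filter.

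Of 43 further kinetochore, spindle and cytokinesis genes 23 were tested, and 21 had lower and 2 higher values (median -0.47, with 8 lower and 0 higher at an unadjusted p under 0.05). Over all tested genes 49.1% had lower values, and 2.9% were lower and 3.98% higher at that threshold. The spindle kinesin Kif15 was at 2.30 ± 0.214 against 1.02 ± 0.184 CPM (log2 fold change -1.14, SE 0.281, edgeR adjusted p = 0.416). Incenp, the scaffold of the chromosomal passenger complex, was at -0.67 and Tacc3, a spindle protein, at -0.92. Ncapd3, of condensin II, was the most abundant in CPM and was at 0.01 (8.48 ± 0.135 against 8.54 ± 0.936 CPM).

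Genes upstream of these waves had smaller differences. The background for the counts below is 49.1% of all tested genes lower in Hpn-/- glands. Of 20 tested transcription factors and pocket proteins 13 were lower and 7 higher (median -0.12), with the E2F partner Tfdp1 at -0.54, the repressor E2f7 at -0.88, the pocket protein gene Rbl2 at 0.37 and Rbbp4, the most abundant in CPM, at 0.14. Of 13 tested G1 cyclins and kinases 9 were lower and 4 higher (median -0.19). The D-type cyclin gene Ccnd3 was at 25.1 ± 1.89 in WT against 36.7 ± 6.63 in CPM (log2 fold change 0.55, SE 0.144, edgeR adjusted p = 0.440), while Ccnd2, the most abundant in CPM, was at 0.00. Cdk4 and Cks1b were at -0.33 and -0.58. Of 5 tested inhibitors of cyclin-dependent kinases 3 were lower and 2 higher (median -0.08), with Cdkn1b (p27), the most abundant, at 0.21, Cdkn1a (p21) at 0.12 and Cdkn1c at -0.13.

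Markers of the cell types of a gland are given beside these values, as summed CPM per library. The background for the counts of markers is 49.1% of all tested genes lower in Hpn-/- glands. The 15 T and NK cell markers summed to 104 to 131 in WT and 137 to 186 in Hpn-/- libraries, with 14 of 14 tested higher, and the 11 B cell markers to 77.9 to 85.8 and 92.9 to 127, with 10 of 11 higher. The 10 fibroblast markers summed to 2790 to 3860 and 2040 to 3080, with 7 of 10 lower, and the 8 Schwann cell markers to 87.5 to 105 and 67.0 to 93.2, with 8 of 8 lower. Luminal markers summed to 101 to 123 and 103 to 143, with 11 of 15 higher, and basal markers to 56.2 to 68.8 and 59.4 to 72.8, with 6 of 7 higher. Adipocyte markers (2620 to 3200 and 2820 to 3250), macrophage markers (182 to 232 and 190 to 251), endothelial markers (205 to 230 and 174 to 234) and germinal centre B cell markers (17.1 to 26.4 and 15.7 to 20.0) overlapped between genotypes. Skeletal muscle markers ran from 124 to 1350 in WT and from 31.8 to 2200 in Hpn-/- libraries, and erythroid markers from 22.3 to 34.3 and 23.2 to 38.5. The erythroid gene Hba-a2 was at 0 counts in all libraries. The part of these cell types in the members' values was not tested.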

How the data were processed

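Total RNA of whole mammary glands was depleted of ribosomal RNA and sequenced on a NextSeq500 as single-end reads of 75 bases from directional libraries, per the labels' protocols. The deposited table holds raw read counts per gene for 6 libraries. Per the submitters' processing notes, GRCm38, STAR 2.6.0c and featureCounts were used, besides DESeq2, Trimmomatic and bcl2fastq. The sources used here do not state settings, strand mode or the handling of reads that map to several places. Each of the 55450 identifiers matched GENCODE M21.

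Counts were fitted in R 4.3.3 with edgeR 4.0.16 (filterByExpr with a minimum count of 10 and a minimum total of 15, which kept 12520 genes, TMM factors of 0.914 to 1.24, robust quasi-likelihood test, with genotype alone in the model). The p-values, two-sided, were adjusted by Benjamini-Hochberg over all tested genes, and an adjusted p under 0.05 was called. List means used log2 CPM with a prior count of 2. The test was tested on simulated data. Genotype and replicate number came from the titles and age from the labels. The spread behind each p-value is that between these samples. It includes age, since the 3 WT libraries differ in age, and may be technical in part. Replicate libraries differed by more than sampling noise (chi-square divided by its degrees of freedom, 6.72 to 32.1). Groups of 3 against 3 were compared.

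The members and lists were chosen with earlier results of these data known. Values in every library are given for the 4 S phase and 6 mitotic members of smallest p, the 3 of each with the highest level per length, members above 0, Mki67, Top2a and Pcna. Of each other cell cycle list the 3 genes of smallest p and the most abundant are named. The value of 1 marker gene is not reported here. Promoter windows come from RefSeq, GRCm38.p6. The alternatives were other scalings and filters, DESeq2 1.42.0, limma-voom (limma 3.58.1), a replicate block, age as a covariate, ribosomal RNA loci left out and each library left out in turn.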

Additional observations from a re-analysis of the deposited data

Results flagged for a closer look

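The genotypes went opposite ways at 5 and at 6 weeks in 8 of 45 values examined, the list means, the shares of mitotic counts and the single members. Each rests on 1 WT and 1 Hpn-/- library at 5 weeks and on 1 WT and 2 Hpn-/- libraries at 6 weeks, and the difference between ages was not tested. The share of all tested genes that went opposite ways is not given here, so the count is not a result about the members. Some of the differences below are close to 0. The share of mitotic genes in the member counts differed, Hpn-/- minus WT, by -6.3 percentage points at 5 weeks and by 3.5 and 2.9 points for Hpn-/- replicates 1 and 2 at 6 weeks. Without Smc4 the differences were -7.9 at 5 weeks and 0.6 and 1.7 points at 6 weeks. The mitotic list mean minus the S phase list mean differed by -0.47 at 5 weeks and by 0.02 and 0.12 at 6 weeks. On the log2 CPM scale Plk1 differed by -0.54 at 5 weeks and by 0.48 and 0.88 at 6 weeks, and Bub1b by -0.21 against 0.48 and 0.22. Aurka differed by -0.24 against 1.05 and 1.75, where the 6 week WT library had 2 counts. Mcm7 went the other way, with 0.08 at 5 weeks and -0.84 and -0.36 at 6 weeks, as did Birc5 with 0.13 against -0.53 and -0.28 on 6 to 14 counts.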

How the results depend on the processing

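The medians of the S phase and mitotic members stayed below 0 in every alternative run, from -0.58 to -0.15 and from -0.87 to -0.48. The median of mitotic minus that of S phase members ran from -0.51 to -0.21. RLE and upper quartile scaling kept 11 of 11 S phase and 24 of 25 mitotic members below 0. Leaving out Smc4, chosen after seeing the data, left the mitotic median at -0.67. Without a count filter 1 member, Mki67, was called lower, and over all genes 76 were called higher and 24 lower. Over all genes DESeq2 called 8 higher, limma-voom 0, age as a covariate in all libraries 0, and age among the 5 and 6 week libraries 3 higher and 1 lower. With single libraries left out, 0 to 89 genes were called higher, 0 to 111 lower, and 0 to 2 members lower, with an S phase median of -0.58 to -0.15. The highest counts and the median of -0.58 come from leaving out Hpn-/- replicate 3, the median of -0.15 from leaving out Hpn-/- replicate 1, and the cause was not tested. Pcna turned to 0.03 and 0.04 with age as a covariate, in the 5 and 6 week libraries and in all 6, and ran from -0.24 to 0.06 with single libraries left out, above 0 without WT replicate 3 (0.03) or Hpn-/- replicate 1 (0.06).

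The replicate numbers are not shown to pair the samples. The correlation of deviations from the group means was 0.167, 0.0732 and 0.368 for replicates 1, 2 and 3, and with the replicate number as a block 8 genes were called higher, 1 lower and 0 members. Counts of 2 to 259 per member and library limit the precision.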
